A study of Mus musculus with 11 samples.

Results

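Bulk RNA sequencing covered 10 genes of metal handling in KP1, a mouse cell line of small cell lung cancer (SCLC) that carries Rb/p53 mutations. The cells grew in culture in RPMI-1640 with bovine serum and antibiotics. The 10 genes were a list given by name, drawn up with earlier results of these data known: the metallothioneins Mt1, Mt2 and Mt3, the copper chaperones Atox1 and Ccs, the ferritin chains Fth1 and Ftl1, the transferrin receptor Tfrc, the heme oxygenase Hmox1 and the zinc exporter Slc30a1. They were 10 of 35056 genes in the annotation, and all 10 were among the 14106 genes with enough reads to be tested. The control group held 2 untreated cultures (replicates 2 and 3) and the irradiated group held 3 cultures (replicates 1, 2 and 3) that received 5 Gy, all of them the same line and collected at 24 h. The labels do not say whether the replicates were grown apart, so p-values measure only the spread between these libraries. The 6 single-cell samples of CD45+ leukocytes in the same series were not analysed here.

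Cells need zinc, copper and iron as cofactors of proteins, and hold the free ions low because they bind to the wrong sites and, for copper and iron, drive the formation of radicals. Metallothioneins are short proteins that bind zinc and copper through cysteines, and the genes Mt1 and Mt2 are switched on by the zinc sensor MTF1 and by stress hormones. Atox1 hands copper to the pumps of the secretory pathway and Ccs hands it to superoxide dismutase 1. Ferritin stores iron in a shell of heavy (Fth1) and light (Ftl1) chains, and Tfrc brings iron in with transferrin. Iron regulatory proteins bind a hairpin in these messages, the iron responsive element, which blocks the translation of ferritin and holds back the decay of Tfrc RNA when iron is scarce.

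The coding sequences of the metallothioneins are shown because their length and repeated cysteine codons set these genes apart from most genes measured. All 3 genes lie on the plus strand of chromosome 8 (GRCm38), and each coding sequence runs over 3 exons. That of Mt1 spans chr8:94179311-94180190, that of Mt2 spans chr8:94172848-94173424 and that of Mt3 spans chr8:94152800-94154007. The sequences below are those of the GENCODE M21 transcripts Mt1-201, Mt2-201 and Mt3-201 without their stop codons, with the cysteine codons TGC and TGT in capitals.
Mt1: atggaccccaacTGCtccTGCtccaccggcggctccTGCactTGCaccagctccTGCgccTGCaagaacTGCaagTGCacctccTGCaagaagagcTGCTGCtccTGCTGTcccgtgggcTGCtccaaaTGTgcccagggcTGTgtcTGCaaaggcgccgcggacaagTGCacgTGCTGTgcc
Mt2: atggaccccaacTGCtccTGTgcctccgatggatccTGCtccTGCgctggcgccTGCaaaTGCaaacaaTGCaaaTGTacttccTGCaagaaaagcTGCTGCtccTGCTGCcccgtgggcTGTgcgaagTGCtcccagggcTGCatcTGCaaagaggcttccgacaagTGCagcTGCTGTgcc
Mt3: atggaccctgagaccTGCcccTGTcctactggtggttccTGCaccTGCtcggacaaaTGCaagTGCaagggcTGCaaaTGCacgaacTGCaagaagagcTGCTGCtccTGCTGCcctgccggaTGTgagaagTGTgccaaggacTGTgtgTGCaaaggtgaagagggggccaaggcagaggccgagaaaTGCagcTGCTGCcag
Cysteine took 20 of the 61 codons of Mt1 and of Mt2 (32.8%) and 20 of the 68 codons of Mt3 (29.4%). The coding bases were 79.2% identical between Mt1 and Mt2, 66.8% between Mt1 and Mt3 and 68.1% between Mt2 and Mt3 in a global alignment. No other gene matched Mt1, Mt2 or Mt3 at 95% identity over 80% of the main transcript.

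Matches to the iron responsive element in the ferritin chains and in Tfrc are shown because iron sets the output of these messages through such elements. Each stretch of 30 bases lies within 1 exon, and the capitals mark the bulged C and the 6 bases of the loop.
Fth1, 5′ UTR, chr19:9982731-9982760, plus strand: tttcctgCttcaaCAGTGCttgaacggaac
Ftl1, 5′ UTR, chr7:45459779-45459808, minus strand: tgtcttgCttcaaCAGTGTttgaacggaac
Tfrc, 3′ UTR, chr16:32631218-32631247, plus strand: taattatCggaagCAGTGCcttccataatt
Tfrc, 3′ UTR, chr16:32631597-32631626, plus strand: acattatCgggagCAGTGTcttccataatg
Tfrc, 3′ UTR, chr16:32631662-32631691, plus strand: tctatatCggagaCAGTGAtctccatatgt
Tfrc, 3′ UTR, chr16:32631709-32631738, plus strand: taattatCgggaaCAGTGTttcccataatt
The search took the sense strand of the transcript and asked for a C, 5 bases, the loop CAGTGN with any base but G at N, and 5 bases that pair with the first 5 by Watson-Crick or G-T pairs. Among 13510 main transcripts of tested genes, 17 (0.126%) held such a match in the 5′ UTR and 69 (0.511%) in the 3′ UTR. Tfrc held 4 matches, and it was the only 1 of these transcripts with more than a single match in the 3′ UTR. A match describes the letters and does not show binding, and an element that departs from this pattern would be missed.

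The libraries held 21185956 to 31036317 reads estimated by Salmon. The mean length of a transcript, weighted by reads, was 5465 and 4731 bases in controls and 3626 to 3999 bases in irradiated libraries, so irradiated libraries drew more of their reads from short transcripts. Control replicate 2 lay farther from the irradiated libraries in this length than control replicate 3 did. Of the 10 genes, 8 had more CPM (reads scaled by library size) in control replicate 3, though for Ftl1 the values were 585 against 583. The share of all tested genes with more CPM in control replicate 3 was not taken. Markers of neuroendocrine tumor cells were all detected (8 of 8), with a summed level of 2630 to 2787 TPM (transcript abundance scaled for length and library size) in controls and 2585 to 2781 TPM in irradiated cells. Leukocyte markers summed to 4.55 to 6.91 TPM in controls and 1.18 to 1.62 TPM in irradiated cells, with 3 of 5 at or below the floor of 3 reads in every library, and endothelial markers summed to 1.28 to 1.55 TPM and 0.314 to 0.524 TPM. Fibroblast markers summed to 56.8 to 67.3 TPM in controls and 36.7 to 51.8 TPM in irradiated cells, mostly from Pdgfra and with Col3a1 at 0 in every library. Red cell markers summed to 0.616 to 0.871 TPM and 0.622 to 1.2 TPM. The part of these other markers in the results was not tested.

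Of the 10 genes, 5 rose after irradiation at an adjusted p under 0.05 (Mt1, Mt3, Ccs, Fth1 and Ftl1), against 12.7% of all tested genes that were called higher. None was called lower, against 13.0% of all tested genes, and edgeR found 0 of the 10 lower at an unadjusted p under 0.05, as DESeq2 found 0 lower at an adjusted p under 0.05. Mt2 and Atox1 had an unadjusted p under 0.05 and missed the adjusted threshold, which makes 7 genes higher at the unadjusted level, against 20.9% of all tested genes (20.1% were lower). In CPM, all 3 irradiated libraries lay above both controls for 8 of the 10 genes, against 30.1% of all tested genes, and none had all 3 below, against 29.3%. The study's stricter thresholds, with a log2 fold change beyond 1.5 as well, were applied here to edgeR. They left 1 gene higher (Mt1) and 0 lower, against 1.63% and 1.90% of all tested genes. The study used DESeq2 with another correction of p. In DESeq2 as run here, Mt1 (adjusted p = 0.084) and Atox1 (adjusted p = 0.12) did not pass. The median log2 fold change was 1.17 over the 10 genes and 0.02 over all tested genes.

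The genes that were higher are short. The median transcript length was 916 bases over the 10 genes and 2502 bases over all tested genes, and fold changes across all genes fell with length. Tested genes were split by length into 10 classes of nearly equal number. The shortest class (81 to 1020 bases) had a median of 0.77 with 39.1% called higher, and the longest (5266 to 123179 bases) had a median of −0.78 with 53.2% called lower. Mt1, Mt2, Mt3, Atox1, Fth1 and Ftl1 fell in the shortest class. The same slope, at a smaller size, ran between the untreated controls: replicate 3 minus replicate 2 had a median of 0.20 on the log2 scale in the shortest class and −0.30 in the longest. When a smooth trend of counts with transcript length was taken out in each library (a length offset), 1 of the 10 genes was called higher (Fth1) and 0 lower, against 4.25% and 3.64% of all tested genes. At an unadjusted p under 0.05 edgeR then had 6 higher and 0 lower, against 17.1% and 13.7% of all tested genes. The median log2 fold change of the 10 genes was then 0.59, and that of all tested genes 0.04. Such an offset takes out a smooth trend with length whatever its source, but not all of it. With it the shortest class, which holds Mt1, Mt2, Mt3, Atox1, Fth1 and Ftl1, kept a median of 0.20, and the longest had −0.04. Whether the trend came from the cells or from the RNA and the libraries cannot be told apart here.

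**Figure D1:**
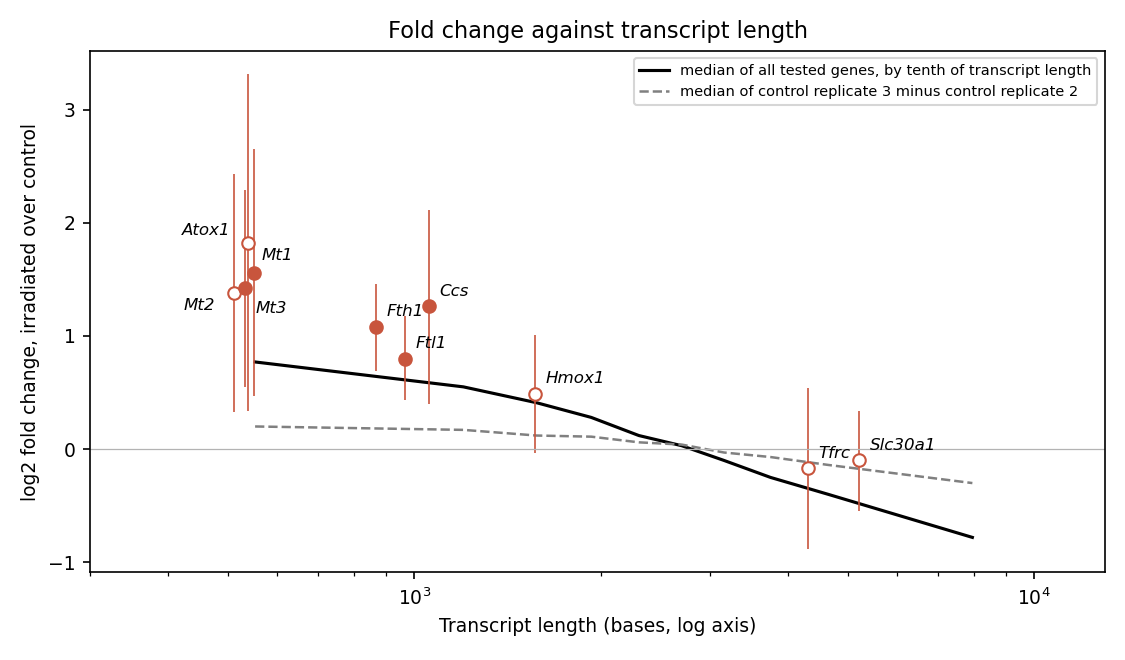
Log2 fold change of irradiated over control (edgeR) against transcript length in bases on a log axis, with 95% confidence intervals for the 10 metal handling genes; filled points have an adjusted p under 0.05. The black line joins the medians of all tested genes by class of length and falls from 0.77 to −0.78, and the dashed line, control replicate 3 minus control replicate 2, falls from 0.20 to −0.30.

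Of the metallothioneins, Mt1 and Mt3 were called higher in irradiated cells and Mt2 was not, and none of them was called with the length offset. Mt1, which with Mt2 is made in most tissues and answers to zinc, copper and stress, was at 183 and 516 TPM in control replicates 2 and 3 and at 649, 1313 and 616 TPM in irradiated replicates 1, 2 and 3. All irradiated libraries were above both controls, yet the controls differed 2.82-fold from each other, more than the 2.46-fold between the group means (350 ± 235 TPM, SD, n = 2, and 859 ± 394 TPM, n = 3). The log2 fold change of Mt1 was 1.56 ± 0.48 (SE), with an adjusted p of 0.0455. It was 1.04 with the length offset (adjusted p = 0.112), and without control replicate 2 it was 1.03 (adjusted p = 0.177).

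Mt2 was likewise lowest in control replicate 2 and highest in irradiated replicate 2, at 351 and 900 TPM in controls and 1188, 2056 and 838 TPM in irradiated cells. In TPM, irradiated replicate 3 thus lay below control replicate 3, while in CPM it lay just above, at 120 against 109. Its log2 fold change was 1.38 ± 0.46 and missed the threshold (adjusted p = 0.0572). The 95% interval of 0.33 to 2.43 left a wide range of changes possible. Taking out the length trend gave 0.87 for Mt2 (adjusted p = 0.148).

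Mt3, the metallothionein best known from neurons, was far less abundant, at 12.5 and 20.6 TPM in controls and 45.6, 37.1 and 28.5 TPM in irradiated cells. The groups did not overlap, and the highest library here was irradiated replicate 1, where for Mt1 and Mt2 it was irradiated replicate 2. These levels rest on 50 to 184 reads a library. The log2 fold change of Mt3 was 1.42 ± 0.38 (adjusted p = 0.0298), and it was 0.90 with the length offset (adjusted p = 0.115) and 1.16 without control replicate 2 (adjusted p = 0.146). The fourth gene of the family in the mouse, Mt4, which is known from stratified skin, had 0 reads in every library.

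Mt2 was more abundant than Mt1 in every library. The ratio of Mt1 to Mt2 in TPM was 0.521 and 0.574 in controls and 0.547, 0.639 and 0.735 in irradiated cells. The groups overlapped, and the mean log2 ratio differed by 0.22 (two-sided exact permutation test, p = 0.3, n = 2 and 3, where the smallest p possible is 0.1). A single transcript gave nearly all of the signal of each gene: Mt1-201 carried 99.4% to 99.8% of the TPM of Mt1, Mt2-201 carried 99.4% to 100% and Mt3-201 carried 90.8% to 100%. Salmon's effective length of Mt1-201, the number of start positions a fragment can take, was 251 to 267 bases over the libraries against a length of 549 bases.

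**Figure D2:**
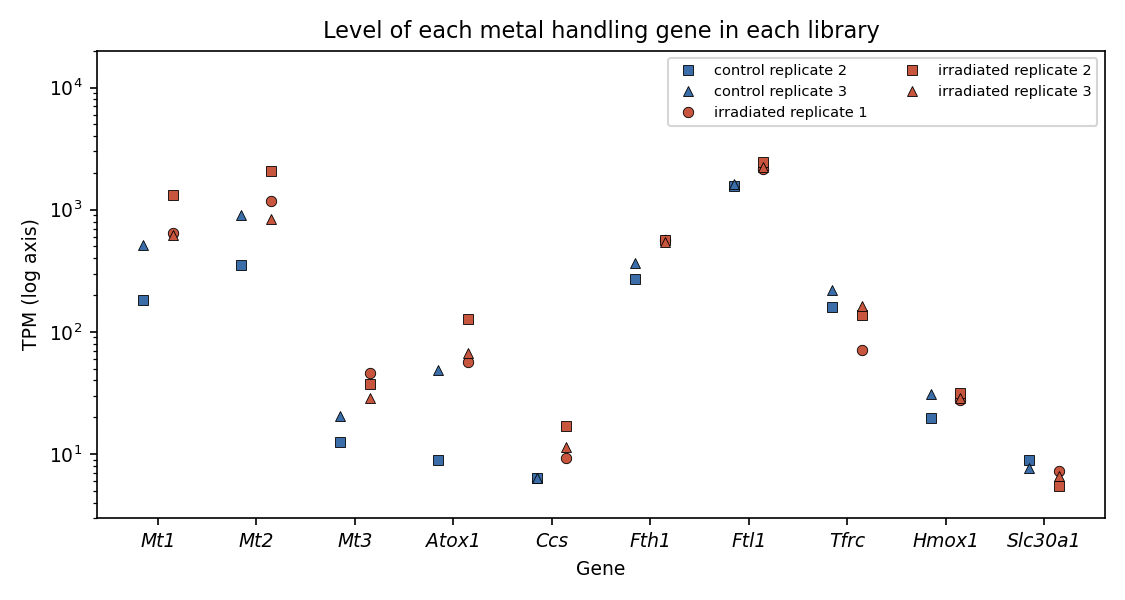
Level of each metal handling gene in TPM on a log axis in the 2 control (blue) and 3 irradiated (red) libraries, with 1 marker shape per replicate number. Mt1, Mt3, Atox1, Ccs, Fth1 and Ftl1 have all irradiated libraries above both controls, while Mt2, Tfrc and Hmox1 overlap and Slc30a1 has all irradiated libraries below both controls.

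The copper chaperones were higher in each irradiated library than in either control. Atox1 was at 8.85 and 49 TPM in controls, from 36 and 176 reads, and at 56.2, 128 and 67 TPM in irradiated cells, from 232, 473 and 298 reads. The controls differed 5.54-fold from each other, and control replicate 3 was close to the lowest irradiated library. With a log2 fold change of 1.82 ± 0.65, Atox1 had the highest value of the 10 genes and the widest error, and it was not called (adjusted p = 0.0698). The value hung on the control used: the log2 fold change was 1.09 without control replicate 2 (adjusted p = 0.197) and 3.47 without control replicate 3 (adjusted p = 0.00704), where the single control left was assumed to vary like the irradiated group.

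Ccs was at 6.33 and 6.38 TPM in controls and at 9.29, 16.8 and 11.3 TPM in irradiated cells. Its controls were nearly equal and every irradiated library was above them. The log2 fold change of Ccs was 1.26 ± 0.37 (adjusted p = 0.0418) from 70 to 195 reads a library. The value was 0.68 with the length offset (adjusted p = 0.199), and without irradiated replicate 2, the highest library, 0.94 (adjusted p = 0.168). Sod1, the superoxide dismutase that receives its copper from Ccs, was at 330 and 386 TPM in controls and at 608, 670 and 493 TPM in irradiated cells, and rose by a log2 fold change of 0.94 ± 0.19 (adjusted p = 0.0136). Its transcript of 651 bases is also short, and with the length offset the value was 0.35 (adjusted p = 0.111), while without control replicate 2 it was 0.84 (adjusted p = 0.0786).

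**Figure D3:**
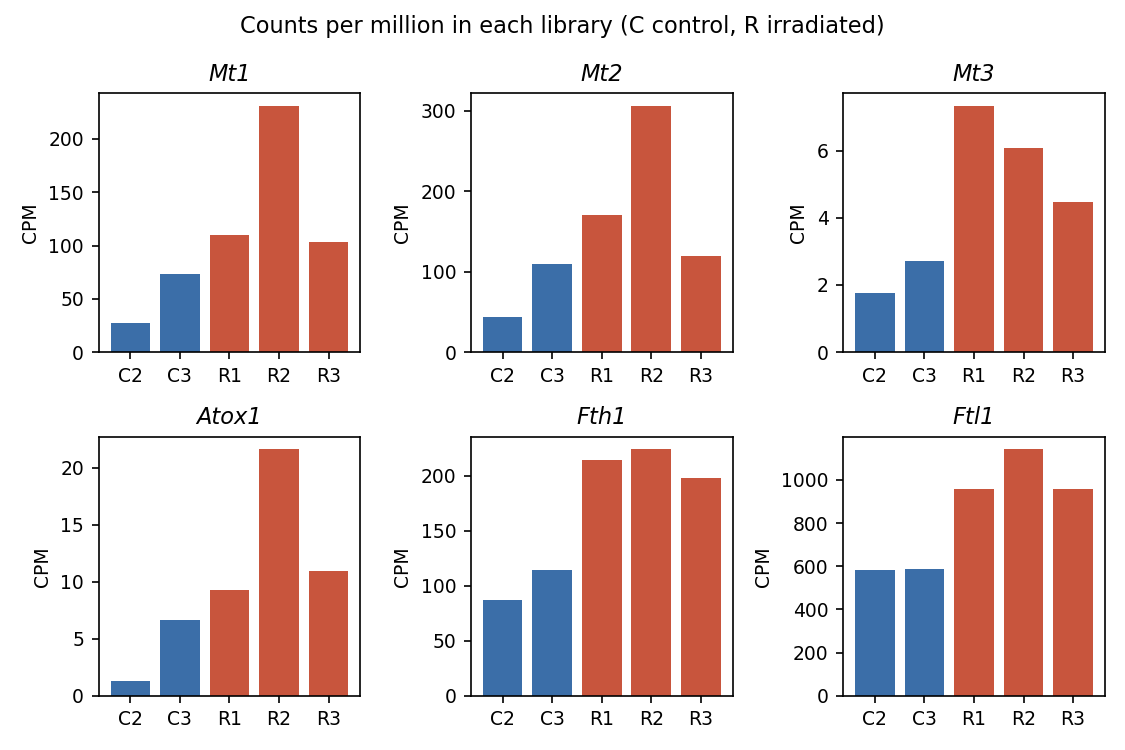
Normalized reads (CPM, linear axes from 0) of 6 genes in each library, with C2 and C3 the control replicates and R1 to R3 the irradiated replicates. The bars of Fth1 and Ftl1 are near level within the irradiated group, while those of Mt1, Mt2 and Atox1 are low in C2 and highest in R2.

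The ferritin chains rose with the smallest standard errors of the 10 genes. Fth1, the chain that oxidizes iron for storage, was at 272 and 368 TPM in controls and at 565, 565 and 541 TPM in irradiated cells. Its irradiated libraries lay close together and all stood above both controls, with group means of 320 ± 67.7 TPM (SD, n = 2) and 557 ± 13.7 TPM (n = 3). The log2 fold change of Fth1 was 1.08 ± 0.17, with the smallest adjusted p of the 10 genes (0.00919). It remained called with the length offset, at a log2 fold change of 0.51 (95% interval 0.22 to 0.80, adjusted p = 0.0481), and was not called without control replicate 2, at 0.91 (adjusted p = 0.0538).

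Ftl1, the chain that helps to lay down the iron core, was the most abundant of the 10 genes in every library. It was at 1553 and 1611 TPM in controls and at 2154, 2451 and 2239 TPM in irradiated cells. The controls were close together and the irradiated libraries stood above them, with a log2 fold change of 0.80 ± 0.16 (adjusted p = 0.0132). With the length offset the value was 0.23 (adjusted p = 0.311), near the median of 0.20 over the shortest class of genes, and without control replicate 2 it was 0.82 (adjusted p = 0.0643). Ftl1 has 5 near-identical gene copies or pseudogenes, which took 0.024% to 0.109% of the reads counted with them and did not move the fold change when summed with it.

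Within each library there was less Fth1 than Ftl1 RNA. The ratio of Fth1 to Ftl1 in TPM was 0.175 and 0.228 in controls and 0.262, 0.23 and 0.242 in irradiated cells, so all irradiated libraries lay above both controls, although irradiated replicate 2 and control replicate 3 were almost equal. The mean log2 ratio was 0.29 higher in irradiated cells (two-sided exact permutation test, p = 0.1, the smallest p that 2 against 3 libraries can give). Without control replicate 2 the difference was 0.0987. The coding sequences of the chains are 61.6% identical, and no other gene matched Fth1 at 95% identity over 80% of its main transcript.

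Tfrc was not called in either direction. It was at 159 and 221 TPM in controls and at 71.4, 138 and 162 TPM in irradiated cells, with irradiated replicate 1 the lowest and irradiated replicate 3 just above the lower control. The log2 fold change was −0.17 ± 0.31 (95% interval −0.88 to 0.54, adjusted p = 0.722), and the interval covers both a fall and a rise. It was 0.22 with the length offset (adjusted p = 0.669), a change of sign for a gene whose main transcript is among the long ones. Tfrc-201 (4890 bases), which holds the 4 matches to the iron responsive element, carried 76.4% and 77.9% of Tfrc TPM in controls. In irradiated cells it carried 91.7%, 91.6% and 87.7%. The shorter Tfrc-202 (1860 bases) was estimated at 31 and 19.2 TPM in controls and at 0.465, 7.43 and 9.19 TPM in irradiated cells. All irradiated libraries lay below both controls for Tfrc-202, which was not tested, and Salmon splits reads that both transcripts share by estimate.

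Hmox1, which breaks heme down and frees its iron, was at 19.6 and 31.1 TPM in controls and at 27.7, 31.3 and 28.6 TPM in irradiated cells. Control replicate 2 was the lowest library, and control replicate 3 lay among the irradiated ones. In CPM both controls (13.9 and 21.3) were below the irradiated libraries (22.9 to 27.8). The log2 fold change of 0.49 ± 0.23 did not pass the test (adjusted p = 0.143), and it was 0.14 with the length offset (adjusted p = 0.622). Slc30a1, which exports zinc at the cell surface and is a target of MTF1 like the metallothioneins, was at 8.97 and 7.65 TPM in controls and at 7.19, 5.42 and 6.61 TPM in irradiated cells. In TPM every irradiated library was below both controls, while in CPM the groups overlapped (24.4 and 20.2 against 18.1 to 23.6). Its log2 fold change was −0.10 ± 0.20 (95% interval −0.55 to 0.34, adjusted p = 0.724) and 0.45 with the length offset (adjusted p = 0.127), so its sign also turned with the treatment of length.

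**Figure D4:**
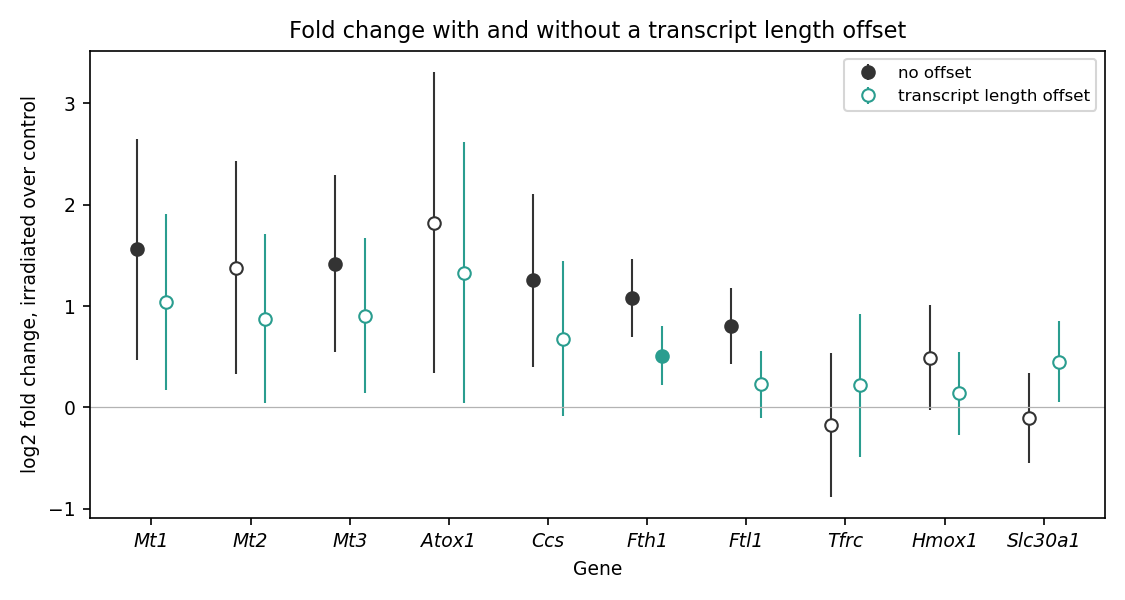
Log2 fold change of irradiated over control with 95% confidence intervals for the 10 genes, without an offset (dark) and with the transcript length offset (green); filled points have an adjusted p under 0.05. Values fall for the genes from Mt1 to Ftl1 and Hmox1 and rise above 0 for Tfrc and Slc30a1, and Fth1 is the only gene called in both fits.

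The levels of the 10 genes can be ranked in TPM. In irradiated cells Ftl1 (2282 ± 153 TPM, SD, n = 3) led Mt2 (1361 ± 627), Mt1 (859 ± 394) and Fth1 (557 ± 13.7), followed by Tfrc (124 ± 46.8), Atox1 (83.8 ± 38.8), Mt3 (37.1 ± 8.53), Hmox1 (29.2 ± 1.87), Ccs (12.5 ± 3.88) and Slc30a1 (6.41 ± 0.9). The libraries of Mt2 and Mt1, of Tfrc and Atox1, and of Mt3 and Hmox1 overlapped between neighbours. In controls the ranges of Mt1 and Fth1 overlapped as well, Hmox1 (25.4 ± 8.13, n = 2) stood above Mt3 (16.6 ± 5.72), and Slc30a1 (8.31 ± 0.933) stood above Ccs (6.35 ± 0.0293).

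Of 25 listed genes of zinc transport and its control, 19 were tested, 1 was called higher and 1 lower, against 12.7% and 13.0% of all tested genes, and the median log2 fold change was 0.16 against 0.02 over all tested genes. Slc30a5, a zinc transporter of the secretory pathway, rose by 0.61 ± 0.18 (adjusted p = 0.0431), from 27.8 and 42.5 TPM to 44.7, 42.8 and 44.1 TPM. With the length offset its value was 0.75 (adjusted p = 0.0425), and without control replicate 2 it was 0.39. It was not called without irradiated replicate 1, 2 or 3 (adjusted p = 0.0983, 0.105 and 0.0649). Slc30a7, another transporter of the Golgi, fell by 0.56 on the log2 scale (adjusted p = 0.0366), and with the length offset its value was 0.00 (adjusted p = 0.994). Its controls lay far apart in TPM, at 34.2 and 9.41, and overlapped the irradiated libraries (12.3, 5.28 and 6.23). In CPM every irradiated library of Slc30a7 was below both controls. Mtf1, which encodes the zinc sensor that switches on Mt1, Mt2 and Slc30a1, was at 15.9 and 15.8 TPM in controls and at 11.1, 17.8 and 15.7 TPM in irradiated cells, with a log2 fold change of −0.26 ± 0.15 (adjusted p = 0.227). In CPM all 3 irradiated libraries of Mtf1 were below both controls.

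Among 34 listed genes of iron and heme handling, 28 were tested, 6 were called higher and 0 lower, against 12.7% and 13.0% of all tested genes, and the median log2 fold change was 0.25. At an unadjusted p under 0.05 edgeR found 8 higher and 1 lower, against 20.9% and 20.1% of all tested genes, and DESeq2 called 0 lower. Among those called, the largest fold changes were those of Blvrb (1.47 ± 0.42, adjusted p = 0.0368), a biliverdin reductase, Cisd1 (1.26 ± 0.24, adjusted p = 0.0115), an iron-sulfur protein of the outer mitochondrial membrane, and Glrx5 (0.95 ± 0.17, adjusted p = 0.0101), which passes on iron-sulfur clusters. The others were Blvra, Iscu and Nfs1. These work in bile pigment reduction and iron-sulfur clusters rather than in the uptake, storage or export of iron. Blvrb rested on 32 to 98 reads a library and was not called without irradiated replicate 1, 2 or 3 (adjusted p = 0.0827, 0.105 and 0.0708). Cisd1 and Glrx5 remained called in each of these fits. Taking out the length trend left Cisd1 alone of the list called (log2 fold change 0.74, adjusted p = 0.0403), against 4.25% of all tested genes higher and 3.64% lower.

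The genes that sense and move iron showed no called change in the main fit. Aco1 and Ireb2, which encode the iron regulatory proteins, had log2 fold changes of −0.13 ± 0.16 (adjusted p = 0.589) and −0.11 ± 0.17 (adjusted p = 0.647). Fbxl5, which marks the second of these proteins for decay when iron is plentiful, was at 0.15 ± 0.18 (adjusted p = 0.582), and the importer Slc11a2 was at 0.02 ± 0.16 (adjusted p = 0.934). Ncoa4, which carries ferritin to lysosomes for breakdown, was at 31 and 32 TPM in controls and at 34, 33.4 and 37.4 TPM in irradiated cells, with a log2 fold change of 0.39 ± 0.15 (adjusted p = 0.0856). Its value was 0.43 with the length offset (adjusted p = 0.0731) and 0.53 with a GC offset, where it was called (adjusted p = 0.0336). The iron exporter Slc40a1 was near absent, at 0 to 7 reads a library, and was not tested.

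Of 15 listed copper genes, 14 were tested, 4 were called higher and 1 lower, against 12.7% and 13.0% of all tested genes, with a median log2 fold change of 0.30. Besides Sod1, the largest increases were those of Commd1 (0.85 ± 0.16, adjusted p = 0.0115), which takes part in copper export, and Cox19 (0.76 ± 0.19, adjusted p = 0.0236), an assembly factor of cytochrome c oxidase. The other gene called higher was Slc25a3, which carries phosphate and copper into mitochondria. Atp7a, the pump that takes copper from Atox1, fell: it was at 15.9 and 13.1 TPM in controls and at 6.31, 7.28 and 7.73 TPM in irradiated cells, a log2 fold change of −0.74 ± 0.18 (adjusted p = 0.0233). With a transcript of 4873 bases it is among the long genes, and with the length offset the value was −0.23 (adjusted p = 0.367). The related pump Atp7b (−0.32 ± 0.47, adjusted p = 0.652), the importer Slc31a1 (0.10 ± 0.18, adjusted p = 0.7) and the mitochondrial chaperone Cox17 (0.66 ± 0.36, adjusted p = 0.203) were not called. Cox17 was at 29.2 and 67.1 TPM in controls and at 127, 204 and 76.5 TPM in irradiated cells, while in CPM its groups overlapped. Its log2 fold change was 1.87 with an offset by Salmon's effective length (adjusted p = 0.0362) and 0.12 with the transcript length offset (adjusted p = 0.811). With the length offset edgeR called 0 of the copper genes at an adjusted p under 0.05, against 4.25% of all tested genes higher and 3.64% lower. At an unadjusted p under 0.05, 3 of the 14 were higher and 0 lower, against 17.1% and 13.7% of all tested genes.

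**Figure D5:**
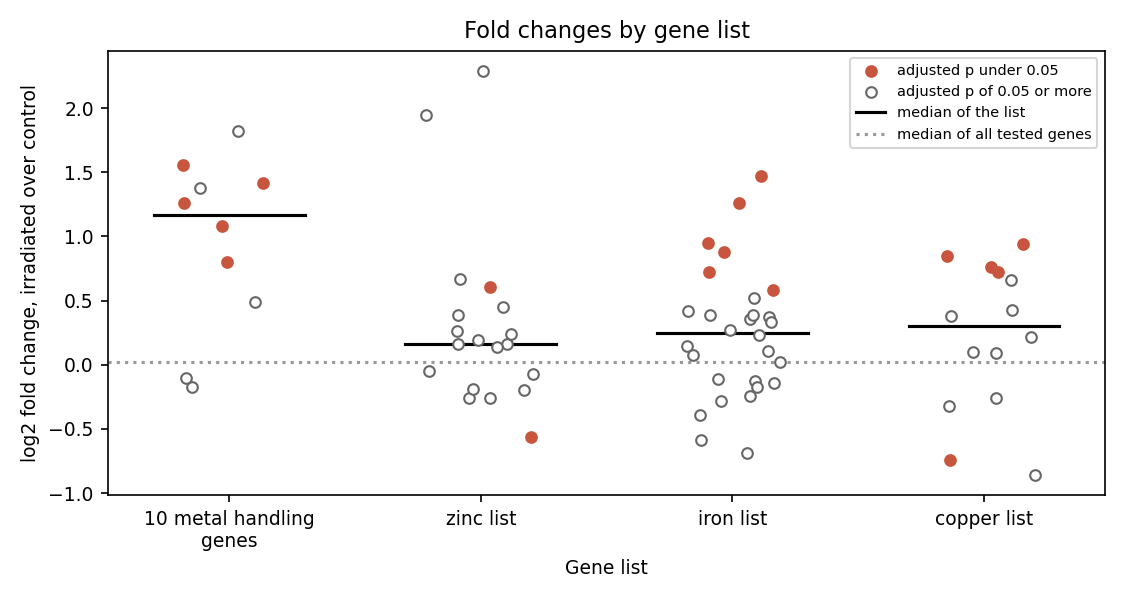
Log2 fold change of irradiated over control for the 10 metal handling genes and the tested genes of the zinc, iron and copper lists; filled points have an adjusted p under 0.05, bars mark the median of each list and the dotted line the median of all tested genes. The medians are 1.17, 0.16, 0.25 and 0.30 against 0.02 over all tested genes.

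Of all tested genes, those whose pattern over the 5 libraries was most like that of Fth1, the gene with the smallest p of the 10, were Akr1a1, an aldehyde reductase, Atp6v1e1, a subunit of the proton pump of lysosomes, and Cope, a subunit of the coat of Golgi vesicles. Likeness was measured as the root mean square difference of log2 CPM after centring, which was 0.0147 for Akr1a1, 0.0501 for Atp6v1e1 and 0.0503 for Cope. Fth1 was at 87.3 and 114 CPM in controls and at 214, 224 and 198 CPM in irradiated cells, and Akr1a1 was at 139 and 183 CPM and at 336, 362 and 318 CPM. Their transcripts of 1272 to 1423 bases are also short, and over 5 libraries many genes can share a pattern.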

How the data were processed

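RNA of 2 control and 3 irradiated KP1 cultures was sequenced. The authors quantified each library with Salmon (version 0.8.2 in the submitters' processing notes) against mm10, and the annotation release is not given in the sources used here. The deposited values are expected counts of reads per transcript, unscaled, and TPM, scaled for effective length and library within each file, beside transcript lengths. The same notes name DESeq2 1.22.2. Of 113116 transcripts, 112762 (99.69%) matched GENCODE M21 and were summed into 35056 genes, holding 99.87% to 99.88% of reads. Counts were rounded. The index differed slightly from M21 (Fth1-201 has another length there), so lengths are those of the deposited files.

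The groups were tested with edgeR 4.0.16 in R 4.3.3: filterByExpr, TMM, the quasi-likelihood test, no block and Benjamini-Hochberg adjustment over 14106 genes, called at an adjusted p under 0.05. CPM uses TMM library sizes. Transcript length per gene is weighted by TPM, and its offset is a spline with 5 degrees of freedom per library. The detection floor was 3 reads, and floors cover counting error only. Other settings were DESeq2 1.42.0, other normalizations, filters, gene sets and offsets, a replicate block, near-identical copies found with blastn 2.17.0 and summed, and each library left out. In simulated counts a call also needed a log2 fold change beyond 1.5, unlike the calls at an adjusted p alone. On that rule edgeR recovered 90.5% of changed genes with 1 false among 182 calls. With a simulated length trend it made 225 false among 375 calls, and 3 among 179 with the offset. Recovery and false calls without the fold threshold were not counted. Recovery of changes below that threshold, such as those of Mt3, Ccs, Fth1 and Ftl1, was therefore not tested. How the offset performs on the trend of these libraries, which also ran between the controls, was not tested.

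The genes and lists were chosen with earlier results of these data known. Named genes were the 10 members, 12 named regulators, transporters and chaperones, the 3 largest called changes of each list and direction, and the 3 nearest patterns. Mt4, Slc25a3, Blvra, Iscu, Nfs1 and the markers Pdgfra and Col3a1 were named after their values were seen.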

Additional observations from a re-analysis of the deposited data

How the results depend on the processing

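Of the log2 fold changes of single genes recomputed under the alternatives, 427 kept direction and side of the threshold, 103 kept direction and lost a call, 15 kept direction and gained one and 43 turned in sign. Of those that turned, Slc30a7 was called at first and not after, Ireb2 was called with the length offset without control replicate 3 only, and the others were called in neither setting. With the length offset the turned values were 0.22 for Tfrc, 0.45 for Slc30a1, 0.26 for Mtf1, 0.14 for Aco1, 0.47 for Ireb2, 0.43 for Atp7b and 0.00 for Slc30a7. With it and without control replicate 2 they were −0.03 for Hmox1, 0.51 for Slc30a1, 0.14 for Mtf1, 0.12 for Aco1, 0.25 for Ireb2, −0.05 for Fbxl5, 0.88 for Atp7b and 0.08 for Slc30a7. With it and without control replicate 3 they were 0.53 for Tfrc, 0.43 for Slc30a1, 0.42 for Mtf1, 0.21 for Aco1, 0.77 for Ireb2 and 0.11 for Atp7b. The GC offset turned Tfrc (0.15), Slc30a1 (0.01), Ireb2 (0.30) and Slc11a2 (−0.02), and the effective length offset turned Mtf1 (0.26) and Fbxl5 (−0.01). Leaving out each library in turn took Tfrc from −0.34 to 0.11, Slc30a1 from −0.22 to 0.06, Ireb2 from −0.24 to 0.07, Fbxl5 from −0.07 to 0.45, Slc11a2 from −0.05 to 0.08, Slc31a1 from −0.10 to 0.39 and Atp7b from −0.72 to 0.31. The number of the 10 genes called higher, 5 in edgeR, was 4 in DESeq2, where Mt1 had an adjusted p of 0.084. This number was 7 with no filter on low counts, where Mt2 and Atox1 were called as well, and 4 with the effective length offset. It was 1 with the length offset, 2 with a GC offset and 1 at the study's thresholds applied to edgeR. With the length offset it was 0 without control replicate 2 and 4 without control replicate 3. The zinc genes called (2) were 1 with total reads alone, 1 with the length offset, 1 with the GC offset, 0 with the effective length offset, and 0 at the study's thresholds or with the length offset without control replicate 2 (2 without control replicate 3). The iron genes called (6) were 1 with the length offset and 0 at the study's thresholds or with the length offset without control replicate 2 (5 without control replicate 3). The copper genes called (5) were 0 with the length offset, at the study's thresholds or with the length offset without control replicate 2, and 1 with the length offset without control replicate 3. Leaving out each library in turn gave 0 to 7 of the 10 genes higher, 0 to 3 zinc, 0 to 6 iron and 0 to 5 copper genes. In each case none was called without control replicate 2, and without irradiated replicate 2 the 10 genes held 1 call. Leaving out a control leaves a lone one, assumed to vary like the irradiated group. Some settings raised the counts of the lists. The zinc genes called were 3 in DESeq2 and 3 with no filter on low counts. The copper genes called were 6 with the effective length offset, where Cox17 was called. Shares of all tested genes called were taken only for the main fit and for the length offset with all libraries. Counts under the other settings cannot be set against such a share. Other causes of these shifts were not tested.

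Both groups carry the numbers 2 and 3, and deviations of same-numbered libraries correlated at −0.327 across genes. That value rests on a single difference between libraries in each group, so it cannot show whether the numbers pair the samples. With the replicate block 3 of the 10 genes (Mt1, Atox1 and Fth1), 0 zinc, 2 iron and 0 copper genes were called, and 0 of the 10 genes, 0 zinc, 0 iron and 0 copper genes with the block and the length offset. With the numbers crossed in the irradiated group, chosen after seeing the data, 8 of the 10 genes, 3 zinc, 10 iron and 5 copper genes were called. The share of all tested genes called was not taken for the block fits, so these counts cannot be set against it. The block turned Tfrc (0.12, and 0.12 with the numbers crossed), and with the length offset it turned Tfrc (0.51), Slc30a1 (0.33), Mtf1 (0.25), Aco1 (0.22), Ireb2 (0.58) and Atp7b (0.52). The log2 differences of the ratios within numbers 2 and 3 were 0.325 for Mt1 to Mt2 and 0.239 for Fth1 to Ftl1, and leaving out libraries gave 0.112 to 0.325 and 0.0987 to 0.481.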
